A study of Mus musculus with 4 samples.

Results

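The transcription factor gene Myc and genes of ribosome biogenesis and polyamine synthesis, 43 in all, were followed in J774M, a mouse cell line labelled as myeloid-derived suppressor cells (MDSCs), a class of immature myeloid cell that holds back T cell responses. The genes were taken by symbol from a fixed list of 43, with 1 probe set per gene, the one with the highest mean signal, and all 43 were found among the 27482 genes tested. The 4 whole-transcript arrays fell into 2 groups of 2. NC06 cells had received 10 uM of NC06, which inhibits neutral ceramidase (the product of Asah2), over 24 h. The other group was control cells of the same line, and what these received is not given in the sources used here. All samples are of 1 cell line, and no label states that replicates were grown apart. The p-values therefore cover only the spread among these 4 samples, which may be technical.

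Ribosome biogenesis starts in the nucleolus, where RNA polymerase I transcribes the ribosomal RNA precursor. Small nucleolar ribonucleoproteins (snoRNPs) modify and fold this precursor, and separate sets of assembly factors then build the small and the large ribosomal subunit. MYC binds E-box sequences with its partner MAX and is known for inducing many genes of this pathway, together with genes of polyamine synthesis, in growing cells.

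Every difference below is on the log2 scale and is the mean of the NC06 arrays minus the mean of the control arrays. The 43 genes were a little lower in NC06 cells as a group, with a median difference of -0.18, or 0.885-fold, and none of them differed by 1 log2 or more. Individual differences ran from -0.45 for Fbl to 0.14 for Odc1. No gene passed a Benjamini-Hochberg adjusted limma p of 0.05, among the 43 (0 of 43) or elsewhere (0%). The adjusted p of the 43 ran from 0.188 for Fbl to 0.998 for Tsr1. At an unadjusted limma p under 0.05, 15 of the 43 genes (34.9%) were lower and 0 were higher, against 7.58% of all tested genes lower and 7.78% higher. Leaving out any 1 array reduced the 15 to between 5 and 10, and the share of all genes lower to between 4.39% and 5.4%. It was 6 without NC06 replicate 1, 10 without NC06 replicate 2, 6 without control replicate 1 and 5 without control replicate 2.

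In 37 of the 43 genes the NC06 arrays were both lower than either control array, against 24.5% of all genes and 35.4% of those at or above the median signal. The NC06 arrays were both higher in 1 gene, Odc1, against 23.2% of all genes, and the groups of arrays overlapped in the other 5. Taken array by array, 42 of the 43 genes were below both control arrays on NC06 replicate 1 and 37 on NC06 replicate 2. The median of the 43 genes relative to the mean of the control arrays was -0.19 on NC06 replicate 1 and -0.17 on NC06 replicate 2, so the shift was of like size on both.

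**Figure D1:**
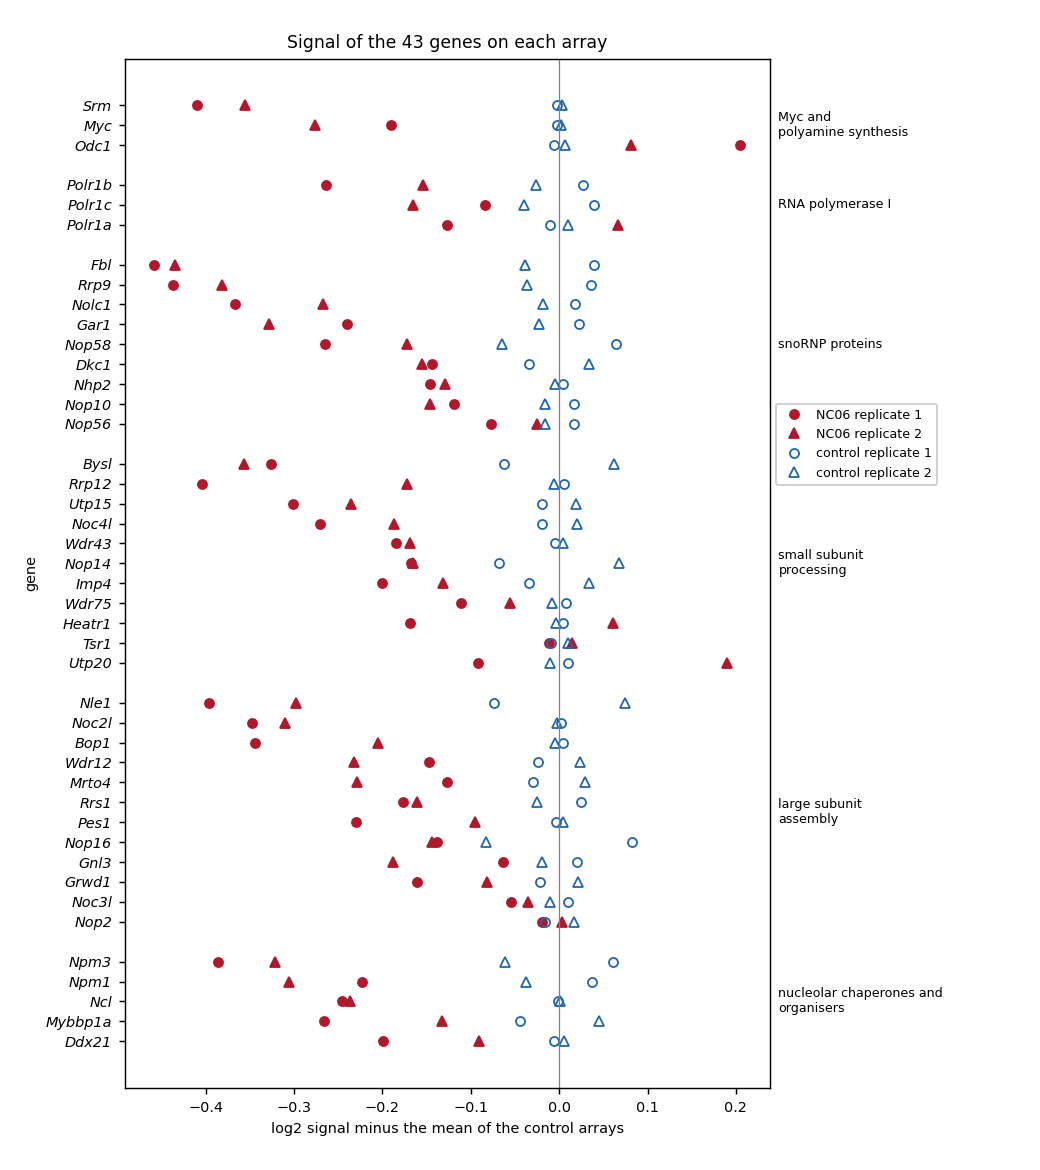
Log2 signal of each of the 43 genes on each array, as the difference from the mean of the control arrays (x axis, log2), with genes down the page grouped by role. Filled red symbols are the 2 NC06 arrays and open blue symbols the 2 control arrays. In 37 genes both red points lie left of both blue points, and in Odc1 both lie to the right.

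All 43 genes are bright on these arrays, from the 77.1 to the 99.2 percentile of mean signal, and 31 of them are in the top 10%. Brighter genes were lower more often in general, and their part in the shift of the 43 was not tested beyond the values that follow. Among the 6256 genes at least as bright as the dimmest of the 43, the median difference was -0.05, with 14% lower at an unadjusted limma p under 0.05 and 46% with both NC06 arrays below both control arrays. Differences of -0.2 or below were seen in 18 of the 43 genes and in 19% of those 6256 genes. That set was cut at the signal of the dimmest of the 43 and was not otherwise matched to them in signal. A limma variance prior with trend and robust fitting, which lets the expected spread depend on signal, gave 15 of the 43 genes an adjusted p under 0.05, all lower, against 3.01% of all genes lower and 2.38% higher. Leaving out genes below the median signal gave 4 of the 43, again lower, against 3.14% of the genes kept lower and 3.56% higher. These 4 were Fbl, Rrp9, Srm and Noc2l. By the p-values of the authors' deposited table, 18 of the 43 were lower at an unadjusted p under 0.05, against 7.38% of the probe sets used.

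**Figure D2:**
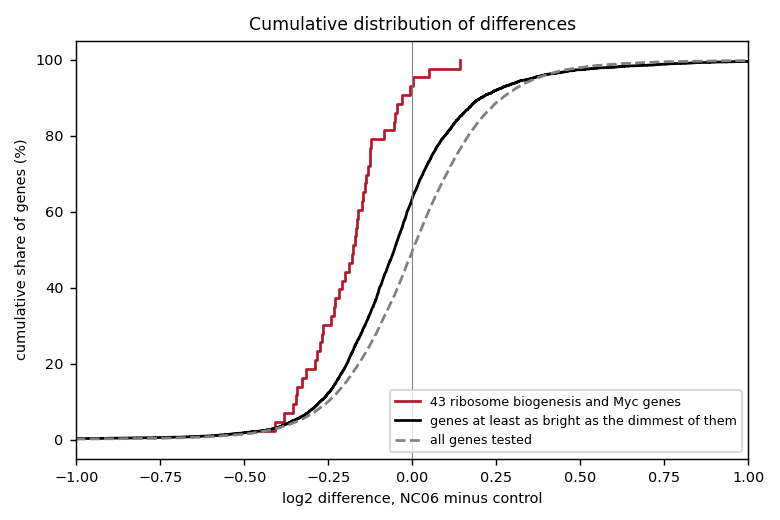
Cumulative share of genes (y axis, %) by log2 difference of NC06 minus control (x axis). The curve of the 43 genes, with a median of -0.18, lies left of the other curves. The black curve is of the 6256 genes at least as bright as the dimmest of the 43, with a median of -0.05. The dashed curve is of all 27482 genes tested.

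**Figure D3:**
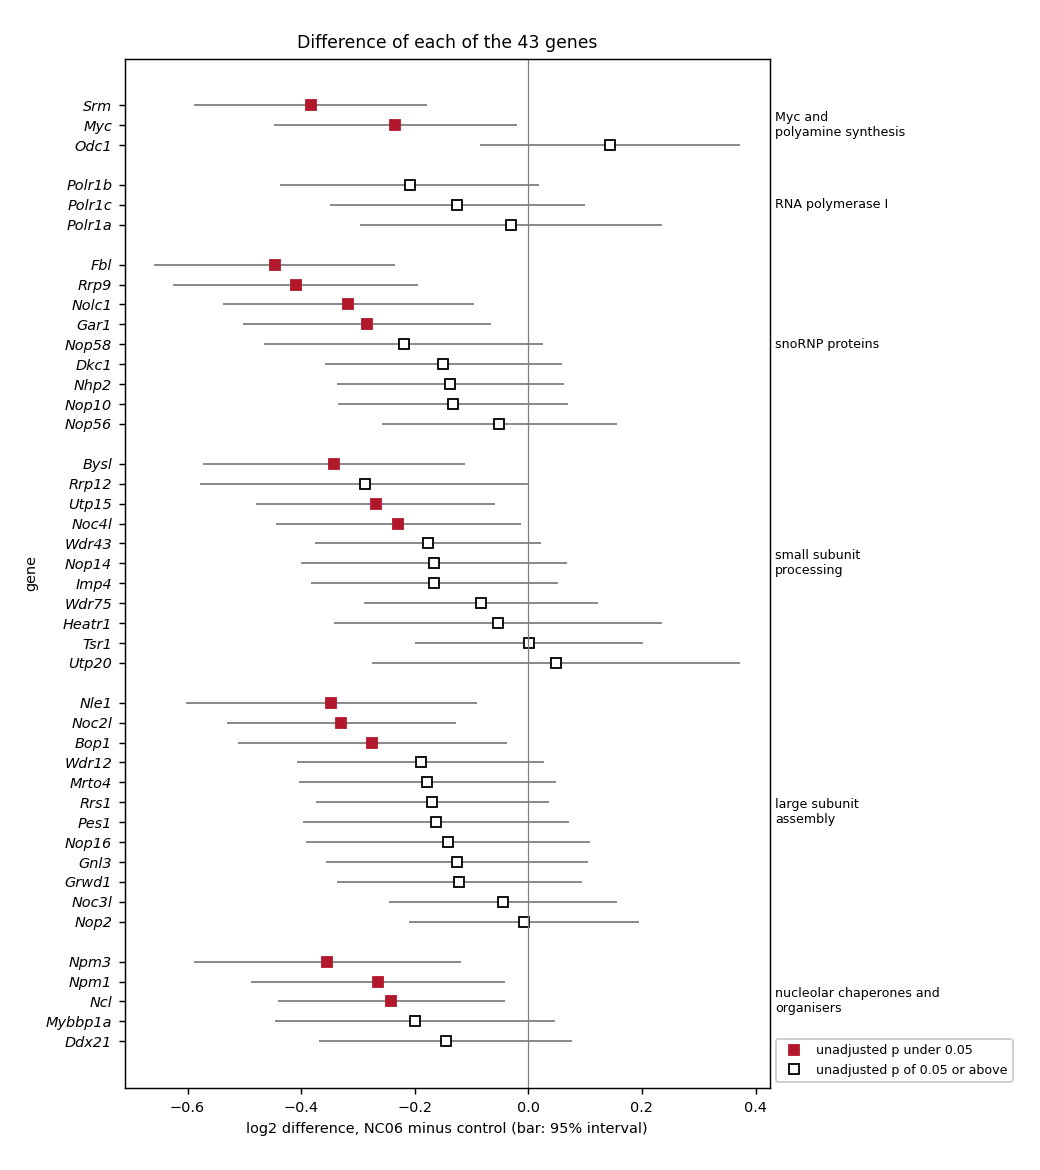
Log2 difference of NC06 minus control (x axis) for each of the 43 genes by role, with the 95% interval of the limma fit as bars. Filled red squares mark the 15 genes at an unadjusted p under 0.05, all of them below 0.

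Myc read 9.45 and 9.36 log2 on the NC06 arrays, against 9.64 on both control arrays (probe set 17311846). Both NC06 arrays were the lower ones. The difference was -0.23 (SE 0.080, 95% interval from -0.45 to -0.02), or 0.850-fold, with an unadjusted limma p of 0.0381 and an adjusted p of 0.306. The unadjusted p was at or above 0.05 without any 1 of the 4 arrays, with a difference between -0.28 and -0.19. Srm encodes spermidine synthase, which makes spermidine from putrescine, and read 10.91 and 10.97 on the NC06 arrays against 11.32 and 11.33 on the control arrays (probe set 17421694). Its difference was -0.38 (SE 0.076, 0.767-fold), its adjusted limma p was 0.207, and the gap between the groups was far wider than the gap within either. Odc1 encodes ornithine decarboxylase, which makes putrescine in the first step of the same pathway. It read 11.08 and 10.96 on the NC06 arrays against 10.87 and 10.88 on the control arrays, a difference of 0.14 (SE 0.085, 95% interval from -0.09 to 0.37, adjusted limma p 0.485). Odc1 was thus the only one of the 43 with both NC06 arrays above both control arrays, without passing the test.

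The other genes of polyamine metabolism were not lower as a group. Of 8, 1 was lower and 1 higher at an unadjusted limma p under 0.05, and their median difference was 0.01. Over all genes, 7.58% were lower and 7.78% higher at that threshold. Smox encodes spermine oxidase, which turns spermine back into spermidine. It read 9.73 and 9.78 log2 on the NC06 arrays against 8.75 and 8.81 on the control arrays. The difference of 0.98 (SE 0.079) was larger than that of any of the 43 genes, with an adjusted limma p of 0.0797. Paox, which encodes the oxidase of acetylated polyamines, had a difference of -0.34, and Sms, the spermine synthase gene, 0.16 (adjusted limma p 0.300 and 0.432).

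**Figure D4:**
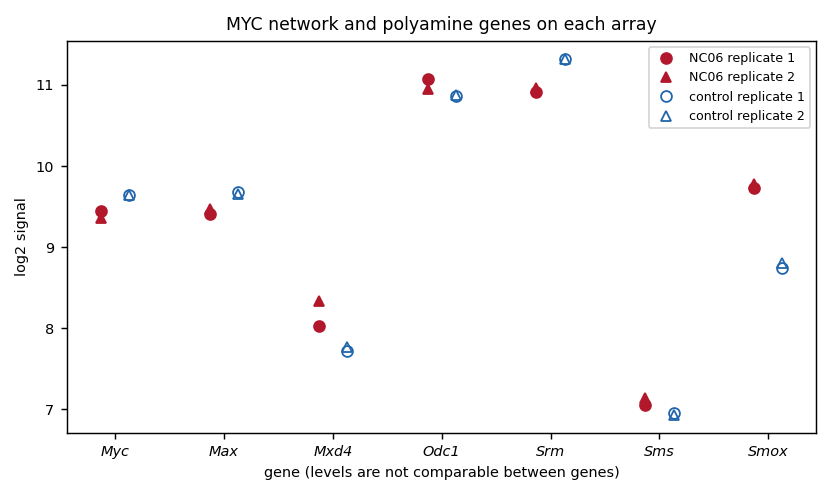
Log2 signal (y axis) of Myc, its partner Max, the antagonist Mxd4 and 4 polyamine genes on each array, NC06 left of control for each gene. Myc, Max and Srm are lower and Mxd4, Odc1, Sms and Smox higher on both NC06 arrays than on both control arrays.

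Factors of the MYC network were mixed. Of 13, 1 was lower and 1 higher at an unadjusted limma p under 0.05, with a median of -0.04. The shares over all genes were 7.58% and 7.78%. Max, the partner that MYC needs to bind DNA, read 9.41 and 9.47 on the NC06 arrays against 9.68 and 9.65 on the control arrays, a difference of -0.23 (SE 0.078). Mxd4, a repressor that competes with MYC for MAX, read 8.03 and 8.34 against 7.71 and 7.77 in control cells, a difference of 0.44 (SE 0.13). Their adjusted limma p was 0.308 for Max and 0.267 for Mxd4. Mycl, a MYC relative, differed by 0.34 at a low signal, near 4 log2 on every array (adjusted limma p 0.343).

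The promoters of the 43 genes were searched for the MYC and MAX E-box, CACGTG, which reads the same on both strands, because Myc is itself one of them. RefSeq windows of assembly GRCm38.p6, running from 250 bases before to 50 after the start of a gene, were matched by symbol for 36 of the 43. The motif stood in 9 of these 36 (25%), against 8.09% of the 27025 genes with a window and 13.3% of the 4798 genes with a window that are at least as bright as the dimmest of the 43. A match is a description of these letters and not a site of binding. The 9 stretches are shown so that the position and flanks of the motif can be compared, 5′ to 3′ on the strand of the gene, with the motif in capitals and up to 12 bases on each side.
Nle1 (chr11:82908355-82908384, minus strand): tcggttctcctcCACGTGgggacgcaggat
Mybbp1a (chr11:72441355-72441376, plus strand): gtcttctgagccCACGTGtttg
Wdr43 (chr17:71616220-71616249, plus strand): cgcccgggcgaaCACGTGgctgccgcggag
Imp4 (chr1:34439696-34439725, plus strand): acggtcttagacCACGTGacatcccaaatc
Pes1 (chr11:3963965-3963994, plus strand): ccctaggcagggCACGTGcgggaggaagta
Grwd1 (chr7:45830740-45830767, minus strand): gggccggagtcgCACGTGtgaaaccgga
Nop2 (chr6:125131811-125131840, plus strand): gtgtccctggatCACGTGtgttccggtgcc
Tsr1 (chr11:74898092-74898121, plus strand): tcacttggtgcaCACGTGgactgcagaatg
Utp20 (chr10:88826765-88826789, minus strand): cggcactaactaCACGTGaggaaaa
In 7 of the 9 the motif began after the annotated start, from base 3 in Pes1 to base 41 in Mybbp1a. In Nop2 it began at base -60 and in Imp4 at base -121, both before the start. The lines run in the order of the expression difference, from -0.35 for Nle1 to 0.05 for Utp20. The 9 genes with the motif had a median difference of -0.16 with 1 at an unadjusted limma p under 0.05, and the 27 with a window but no motif had a median of -0.17 with 9. The 7 genes without a window were Bop1, Fbl, Myc, Npm1, Rrp12, Rrs1 and Srm, and 5 of these were at an unadjusted limma p under 0.05, so the comparison leaves them out. At that threshold 14% of genes at least as bright as the dimmest of the 43 were lower, and 7.58% of all genes.

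The snoRNP proteins included Fbl and Rrp9, the 2 genes of the 43 with the lowest differences. On the probe sets used, all 9 had both NC06 arrays below both control arrays. At an unadjusted limma p under 0.05, 4 were lower, and the median of the 9 was -0.22. Among genes at least as bright as the dimmest of the 43, 46% had both NC06 arrays below and 14% were lower at that threshold. Fbl encodes fibrillarin, the methyltransferase of the box C/D snoRNPs, and read 9.98 and 10.00 log2 on the NC06 arrays against 10.47 and 10.40 on the control arrays (probe set 17475777). Its difference was -0.45 (SE 0.079, 0.734-fold). The platform annotation assigns this probe set to Tulp4 as well, so the signal may not be that of Fbl alone. Rrp9, a protein particular to the U3 snoRNP that guides early cleavage of the precursor, read 8.01 and 8.07 against 8.49 and 8.42 in control cells (probe set 17521233). Its difference was -0.41 (SE 0.080, 0.753-fold, adjusted limma p 0.206), with no overlap of the arrays.

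Nolc1, a chaperone of snoRNPs, read 10.05 and 10.15 on the NC06 arrays against 10.43 and 10.39 on the control arrays, a difference of -0.32. Gar1, a subunit of the H/ACA snoRNPs that turn uridine into pseudouridine, read 8.95 and 8.87 against 9.22 and 9.17 in control cells, a difference of -0.28. The other H/ACA subunits differed by less, with -0.15 for the pseudouridine synthase gene Dkc1, -0.14 for Nhp2 and -0.13 for Nop10, and none of these 3 reached an unadjusted limma p of 0.05. Nop58 and Nop56, the paired scaffold proteins of the box C/D snoRNPs, differed by -0.22 and -0.05. On the probe sets used, the differences within the box C/D particle thus ran from -0.45 for Fbl to -0.05 for Nop56. The NC06 and control arrays of Nop56 were separated by only 0.0085 log2. Dimmer probe sets, not used here, differed by 0.43 for Nop58 and by 0.24 and -0.44 for Nop56.

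RNA polymerase I subunits showed small differences, and 0 of 3 were at an unadjusted limma p under 0.05. Polr1b, the second-largest subunit, read 7.60 and 7.70 on the NC06 arrays against 7.89 and 7.83 on the control arrays, a difference of -0.21 (SE 0.085, adjusted limma p 0.352). Polr1c, which RNA polymerase III also uses, differed by -0.12, and both of these genes had the NC06 arrays below the control arrays. Polr1a, the largest subunit, overlapped, with 9.19 and 9.38 against 9.30 and 9.32 in control cells. Other genes of RNA polymerase I transcription were lower in 3 of 13 and higher in 0 at an unadjusted limma p under 0.05, with a median of -0.16. Among all genes at or above the median signal, as these 13 were, 11.4% were lower and 9.31% higher. Tcof1 encodes treacle, a nucleolar factor of ribosomal RNA transcription, and read 9.71 and 9.78 against 10.19 and 10.31 in control cells, a difference of -0.50 (SE 0.088, adjusted limma p 0.187). Taf1b, part of the promoter selectivity factor, differed by -0.32 and Ubtf, the upstream binding factor of the ribosomal RNA promoter, by -0.28.

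Of 11 genes of small subunit processing, 3 were lower at an unadjusted limma p under 0.05, 8 had both NC06 arrays below both control arrays, and the median was -0.17. The shares over all genes were 7.58% lower at that threshold and 24.5% with both NC06 arrays below. They were 14% and 46% in the 6256 genes at least as bright as the dimmest followed here. Bysl encodes bystin, which acts late in small subunit maturation. It read 8.98 and 8.95 on the NC06 arrays against 9.24 and 9.37 on the control arrays, a difference of -0.34 (SE 0.086, adjusted limma p 0.240). Utp15, of the complex that also helps ribosomal RNA transcription, read 9.14 and 9.21 against 9.43 and 9.46 in control cells, a difference of -0.27. Noc4l, whose yeast counterpart works with Nop14, read 8.57 and 8.65 against 8.82 and 8.86, a difference of -0.23, while Nop14 itself was at -0.17 without reaching an unadjusted p of 0.05. In these 3 genes both NC06 arrays were the lower ones.

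The NC06 arrays themselves disagreed on several genes of this group. Rrp12, a factor of subunit export in yeast, read 8.62 and 8.85 on the NC06 arrays against 9.03 and 9.02 on the control arrays, so that the size of its difference of -0.29 (SE 0.11) depended on the array. Heatr1 read 9.31 and 9.54 against 9.48 in both control samples, and Utp20 read 8.51 and 8.80 against 8.62 and 8.60. In both genes NC06 replicate 1 was below and NC06 replicate 2 above the control arrays. These 3 were the only ones of the 43 whose NC06 arrays differed by over 0.2 log2, and 0 of the 43 differed by that much between the control arrays. NC06 replicate 1 was the lower NC06 array in 31 of the 43 genes. The median gap between arrays of a group was 0.080 log2 for NC06 and 0.038 for control. The remaining members were Wdr43 at -0.18, Imp4 at -0.17, Wdr75 at -0.08 and Tsr1 at 0.001. The platform annotation assigns the Tsr1 probe set to Srr as well.

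Of 12 genes of large subunit assembly, 3 were lower at an unadjusted limma p under 0.05, 11 had both NC06 arrays below both control arrays, and the median was -0.17. Over all genes, 7.58% were lower at that threshold and 24.5% had both NC06 arrays below. In the 6256 genes at least as bright as the dimmest followed here, these shares were 14% and 46%. Noc2l, whose yeast counterpart escorts large subunit precursors, read 10.07 and 10.11 on the NC06 arrays against 10.42 on both control arrays (probe set 17422914). Its difference was -0.33 (SE 0.075, 0.796-fold, adjusted limma p 0.229). Nle1, whose yeast counterpart is acted on by the ATPase that matures late precursors, read 8.34 and 8.44 against 8.66 and 8.81 in control cells, a difference of -0.35 (SE 0.096). Its E-box stretch is the first of those above.

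Bop1, Pes1 and Wdr12 form 1 complex that is needed to process the large subunit RNA. Bop1 read 9.84 and 9.98 on the NC06 arrays against 10.19 and 10.18 on the control arrays, a difference of -0.27 (SE 0.088). Wdr12 at -0.19 and Pes1 at -0.16 did not reach an unadjusted limma p of 0.05, but in all 3 both NC06 arrays were lower. The remaining members ran from -0.18 for Mrto4, Rrs1 at -0.17, Nop16 at -0.14, Gnl3 at -0.13 and Grwd1 at -0.12 to Noc3l at -0.04 and Nop2 at -0.01. The platform annotation assigns the Mrto4 probe set to pseudogenes of Mrto4 as well. Nop2, a methyltransferase of the large subunit RNA, read 11.69 and 11.72 against 11.70 and 11.73 in control cells, and the 95% interval of its difference ran from -0.21 to 0.19.

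The 5 nucleolar chaperones and organisers all had both NC06 arrays below both control arrays, with a median of -0.24 and 3 at an unadjusted limma p under 0.05. Both NC06 arrays were below in 24.5% of all genes, and 7.58% were lower at that threshold. In the 6256 genes at least as bright as the dimmest followed here, these shares were 46% and 14%. Npm3, a nucleoplasmin family chaperone that binds nucleophosmin, read 10.66 and 10.72 on the NC06 arrays against 11.11 and 10.98 on the control arrays, a difference of -0.35 (SE 0.088, adjusted limma p 0.240). Npm1 encodes nucleophosmin itself, and read 10.93 and 10.84 against 11.19 and 11.11 in control cells, a difference of -0.26. Npm1 has close pseudogene copies, so its signal may include theirs. Ncl encodes nucleolin, an abundant nucleolar RNA-binding protein, and read 11.45 and 11.46 against 11.69 on both control arrays. Its difference was -0.24 (SE 0.074), and its arrays agreed within 0.01 log2 in each group. Mybbp1a at -0.20 and the RNA helicase gene Ddx21 at -0.15 did not reach an unadjusted p of 0.05.

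Further genes of the pathway outside the 43 were lower by similar amounts. Of 47 other genes of small subunit processing, 12 were lower and 0 higher at an unadjusted limma p under 0.05, 38 had both NC06 arrays below both control arrays, and the median was -0.17. Emg1, a ribosomal RNA methyltransferase, differed by -0.33, Nol7 by -0.36 and Aatf by -0.30. Of 52 other genes of large subunit assembly, 10 were lower and 0 higher, 36 had no overlap on the lower side, and the median was -0.14. The lowest p there belonged to Las1l, an endonuclease of the large subunit precursor RNA, at -0.37, Sdad1 at -0.41 and the helicase gene Ddx56 at -0.34. None of these 6 passed an adjusted limma p of 0.05. All genes of both lists were at or above the median signal. Of all genes there, 11.4% were lower and 9.31% higher at an unadjusted limma p under 0.05. Both NC06 arrays were below both control arrays in 35.4% of them, and their median difference was -0.02. Of the 6256 genes at least as bright as the dimmest of the 43, 14% were lower and 8.49% higher. Both NC06 arrays were the lower ones in 46% of those 6256, and their median was -0.05.

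Other genes known as MYC targets were lower in 7 of 29 and higher in 0 at an unadjusted limma p under 0.05, with a median of -0.15. They were led by Eif4ebp1, an inhibitor of cap-dependent translation that ATF4 also induces, at -0.47, the guanine nucleotide synthesis gene Impdh2 at -0.32 and the mitochondrial serine hydroxymethyltransferase gene Shmt2 at -0.29. Genes of DNA replication were lower in 9 of 42 and higher in 0 at the same threshold, with a median of -0.13, led by Pold2 at -0.62, Orc2 at -0.32 and Mcm10 at -0.29. The genes of these 2 lists were likewise at or above the median signal. Among all genes there, 11.4% were lower and 9.31% higher at that threshold, with a median of -0.02. For the 6256 genes at least as bright as the dimmest of the 43, the values were 14%, 8.49% and -0.05. A test of the 43 genes against these lists was not made.

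**Figure D5:**
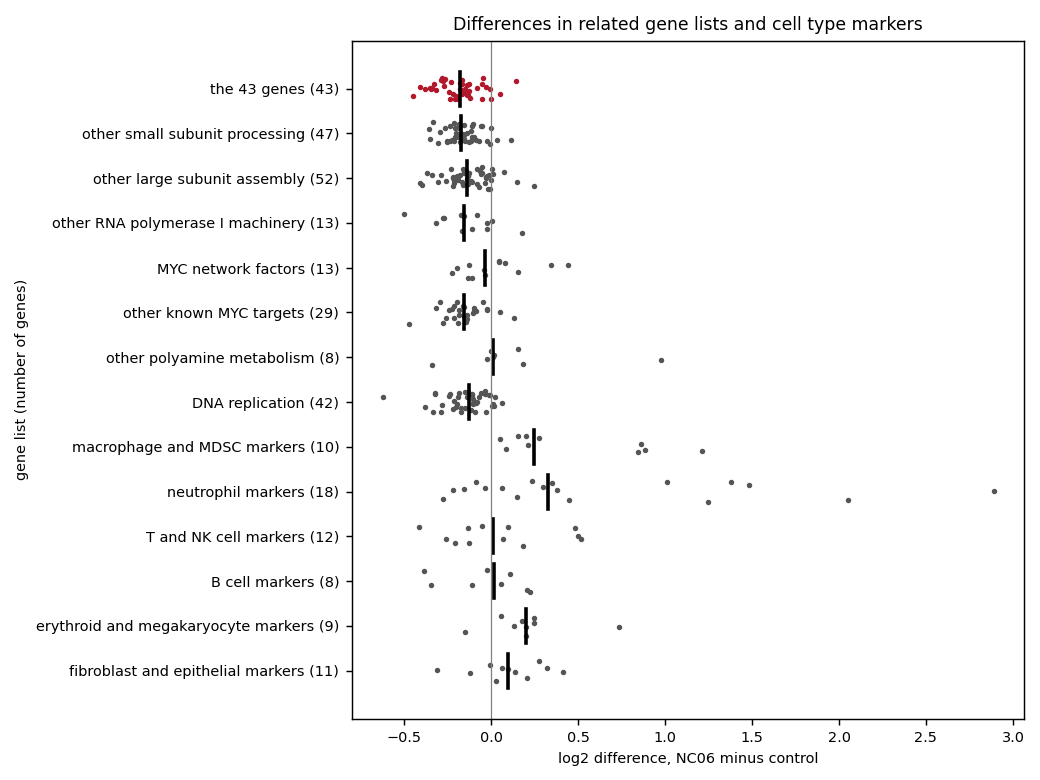
Log2 difference of NC06 minus control (x axis) for each gene of the 43 (red) and of related lists and cell type markers (grey), with the number of genes in brackets and the median as a black bar. The pathway lists, other MYC targets and DNA replication have medians from -0.18 to -0.13, and macrophage and neutrophil markers have medians of 0.25 and 0.32.

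Markers of cell types also differed between these arrays. All 10 macrophage and MDSC markers were above the median signal. All had both NC06 arrays above both control arrays, against 25.5% of genes at or above that signal. Their median was 0.25, and 5 were higher at an unadjusted limma p under 0.05, against 9.31% of genes at or above that signal. Lyz2 at 1.21, Fcgr3 at 0.86 and Adgre1 at 0.88 led them. Of 18 neutrophil markers 7 were higher and 1 lower at the same threshold, against 7.78% and 7.58% of all genes, with a median of 0.32. Mmp8 at 2.89, Mmp9 at 2.05 and Ly6g at 1.38 led them, and 8 of the 18 were above the median signal. Differences were below 0 in 5 of the 18. The 1 called lower was Ngp at -0.28, near 4 log2 on every array. The mean signal of the neutrophil list was 5.71 and 5.62 log2 on the NC06 arrays against 5.04 and 5.05 on the control arrays. T and NK cell markers, 3 of 12 above the median signal, averaged 4.67 and 4.63 against 4.58 and 4.60 in control cells, with Cd28 at 0.51, Cd2 at 0.48 and Lck at -0.42. B cell markers, 2 of 8 above it, averaged 5.64 and 5.72 against 5.76 and 5.67. Among them Ighm read 11.56 and 11.52 against 11.90 and 11.94, Ms4a1 differed by -0.35 and Cd22 by 0.22. Erythroid and megakaryocyte markers, 4 of 9 above it, averaged 5.36 and 5.29 against 5.09 and 5.15. Pf4 was at 0.73, Itga2b at 0.20 and Gata1 at 0.18, and 1 of the 9 was below 0. Fibroblast and epithelial markers, 5 of 11 above the median signal, averaged 5.04 and 5.0 against 4.88 and 4.96. Epcam was at 0.42, Acta2 at 0.32 and Pdgfrb at 0.28, and 3 of the 11 were below 0. The signal of Epcam was low, with 3.94 and 4.05 on the NC06 arrays against 3.65 and 3.5 on the control arrays. The part of these markers in the shift of the ribosome biogenesis genes was not tested, and in such bulk RNA fewer cells of a type and less RNA per cell cannot be told apart. The median over all probe sets was 4.75 and 4.74 log2 for NC06, against 4.68 and 4.67 for control. Centring the arrays on that median gave 26 of the 43 genes lower at an unadjusted limma p under 0.05, against 13.7% of all genes. The median difference was then -0.25 for the 43 and -0.07 for all genes.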

How the data were processed

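RNA of 2 NC06 and 2 control samples was measured on 1 array each, grouped by the sample titles. The log2 values per probe set were deposited by the authors, and the submitters' processing notes name Partek. How background, normalization and summarization were handled is not given in the sources used here. A second deposited table holds, for each of its probe sets, the authors' ratio (NC06 over control) and p-value. It also holds a ratio for each pair of same-numbered arrays. Its log2 ratios equalled differences of the log2 values within 8.8e-05, which settles scale and direction.

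Of 41345 probe sets, 23521 were named by the platform annotation, and 5831 that it lists with several genes or not at all by the symbol of the ratio table, 1520 and 4311 in that order. The ratio table named 4 of the 43 genes: Fbl, Tsr1 and Mrto4, listed by the platform with several genes, and Npm3, which it does not list. The other 11993 were not tested. The 27482 genes were fitted with limma 3.58.1 (lmFit and eBayes, two-sided, 2 residual and 2.38 prior degrees of freedom) in R 4.3.3 without further normalization or filter, with p-values adjusted by Benjamini-Hochberg over all of them and called at 0.05. Standard errors and 95% intervals are those of the fit. The fit was tested on simulated data with independent arrays, which does not bear on whether the replicates here were independent. The number of arrays limits the precision. Python 3.11.15 and pandas 2.3.3 prepared the tables.

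The 43 genes and the gene lists were chosen with earlier results of these data known, so lists are given as counts and medians only. Named were all 43 genes, the 3 genes with the smallest p in each list of related genes or markers, and Ngp, the neutrophil marker that was called lower. Alternatives were quantile normalization, median centring, filters on signal, a trend and robust variance prior, a gene's dimmest probe set or the mean of its probe sets, a block for the replicate number, omission of each array in turn, the authors' deposited p-values and ratios, and naming by the platform annotation alone. The background of brighter genes and the count over genes with 1 platform gene were added after the data had been seen.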

Additional observations from a re-analysis of the deposited data

Results flagged for a closer look

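With 2 arrays per group no array could be tested as an outlier. A pair of probe sets that were not used above gave a signal that was higher on both NC06 arrays than on both control arrays, although the main probe set of the same gene was lower. The second probe set of Nop58 (17213315) read 8.19 and 8.04 log2 on the NC06 arrays against 7.49 and 7.88 on the control arrays, a difference of 0.43 (SE 0.16). A further probe set of Nop56 (17376274) read 7.67 and 7.72 against 7.53 and 7.37, a difference of 0.24 (SE 0.095). The third probe set of Nop56 (17376272) had overlapping arrays and a difference of -0.44 (SE 0.34).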

How the results depend on the processing

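The median difference of the 43 genes was below 0 in every setting run, at -0.25 with median centring, -0.13 with quantile normalization and -0.19 to -0.17 without 1 array, and 34 genes were lower in each setting that held them. Genes lower at an unadjusted p under 0.05 numbered 26 with median centring (13.7% of all genes), 30 with the trend and robust prior (11.1%), 23 without genes below the median signal (17.5% of those kept), 18 by the p-values of the authors' deposited table and 5 to 10 without 1 array. Fbl, Rrp9, Srm and Noc2l were among them in every setting, save that platform naming alone leaves out Fbl, Tsr1, Mrto4 and Npm3. Genes higher were 1 with the dimmest probe set, Nop58, and 1 with the trend and robust prior, Odc1. The adjusted threshold was passed by 15 and 4 of the 43 with that prior and that filter. Over all genes it was passed by 826 lower and 654 higher, and by 431 and 489, in the same 2 settings. It was passed by 46 lower and 92 higher without the lowest signal quartile and by 16 and 47 with platform naming. By 2 higher genes it was passed with the mean and with the dimmest probe set, by 3 with median centring and by 4 with quantile normalization. Genes at an unadjusted p under 0.05 numbered 4219, of which 49.3% were lower, against 75.6% with median centring, and 2631 to 3128 without 1 array.

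The same-numbered arrays share only a number, and their deviations correlated at 0.0345 across all genes and at 0.16 across those at or above the median signal, where all 43 lie. With the replicate number as a block 11 of the 43 genes were lower at an unadjusted limma p under 0.05, against 6.42% of all genes. In that setting Myc, at -0.23, had an unadjusted limma p of 0.0624. With quantile normalization Myc was at -0.21 (p 0.0538), and without 1 array it was between -0.28 and -0.19.

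Signs turned with the dimmest probe set for Nop56 (0.24), Nop58 (0.43) and Imp4 (0.0036), with the mean of probe sets for Nop58 (0.11), with median centring for Utp20 (-0.024) and Tsr1 (-0.072) and with quantile normalization for Polr1a (0.019). Without 1 array Polr1a ran from -0.13 to 0.066, Heatr1 from -0.17 to 0.061, Nop2 from -0.024 to 0.0088, Utp20 from -0.092 to 0.19 and Tsr1 from -0.011 to 0.014. The cause was not tested. Counted over the 39 genes with 1 platform gene, 13 were lower at an unadjusted limma p under 0.05, against 7.58% of all genes.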
